A study of Bos taurus with 14 samples.

Results

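The 7 mature miRNAs of the miR-23, miR-27 and miR-24 clusters were described in PWBC, the peripheral white blood cells, of beef heifers. They were chosen by name, and are bta-miR-23a, bta-miR-23b-3p, bta-miR-27a-3p, bta-miR-27a-5p, bta-miR-27b, bta-miR-24-3p and bta-miR-24. They stand among 1030 mature miRNA names in the count table and among 341 miRNAs retained after a filter on low counts, and all 7 were retained. Blood was drawn at weaning from 14 Angus-Simmental crossbred heifers, and each animal gave 1 small RNA library. Of these, 7 heifers later became pregnant to artificial insemination (AI) and form the fertile group (FH), and 7 were not pregnant after AI and natural service and form the subfertile group (SFH). The labels name no treatment, every animal went through the same breeding programme after the blood was drawn, and the study chose the animals so that birth age, weaning age and body weight were comparable. Heifers are named by the number in their label, such as FH 27 or SFH 30.

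A miRNA is a short RNA cut from a hairpin precursor that guides the silencing complex to mRNAs, chiefly through the bases of its seed near the 5′ end. Each hairpin gives a 5p and a 3p strand, of which usually only one is kept in quantity. In mammals miR-23, miR-27 and miR-24 are made from a pair of related clusters, in each of which the 3 hairpins lie on a common primary transcript. miR-23a and miR-23b share a seed, as do miR-27a and miR-27b, whereas miR-24 is made from both clusters with the same mature 3p strand. In blood formation the miR-23a cluster is known for favouring myeloid over B lymphoid cells. In the RefSeq annotation of the ARS-UCD2.0 cattle assembly, MIR23A, MIR27A and MIR24-2 follow each other between NANOS3 and ZSWIM4, and all 3 overlap the uncharacterised gene LOC132345691. MIR23B, MIR27B and MIR24-1 follow each other between MIR2475 and FANCC, and all 3 overlap AOPEP, which codes for an aminopeptidase.

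The deposited counts summed to between 1754971 and 5468341 per heifer (median 3319368 in FH and 2663375 in SFH). The groups did not differ in log2 total count beyond the spread between heifers (difference of −0.23 for SFH minus FH, n = 7 per group, exact permutation p = 0.453, two-sided). A library with 0 counts of a miRNA allows up to 3 counts, which is 0.549 to 1.71 CPM depending on the heifer and covers counting error only. Levels are given as the deposited CPM, counts of a miRNA scaled to a fixed total over the retained miRNAs, and differences between groups as log2 fold changes of SFH relative to FH. PWBC are a mixture of leukocytes. The lymphocyte markers bta-miR-150 and bta-miR-342 were both measured and summed to 49439 to 104518 CPM in FH and 42775 to 108052 CPM in SFH. All 3 granulocyte and monocyte markers (bta-miR-223, bta-miR-142-3p and bta-miR-142-5p, of which miR-142 is found in all leukocytes) summed to 21272 to 35213 CPM in FH (median 23742) and 23336 to 44970 CPM in SFH (median 36012). Of the 3 erythroid markers bta-miR-144 was not retained, and bta-miR-451 and bta-miR-486 summed to 1574 to 3713 CPM in FH and 1463 to 9236 CPM in SFH, with the highest value in SFH 30. Both platelet and endothelium markers, bta-miR-126-3p and bta-miR-126-5p, summed to only 22.4 to 68.3 CPM in FH and 4.52 to 47.0 CPM in SFH. In such a mixture, fewer cells of a type and less RNA per cell cannot be told apart.

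The clusters were a substantial part of the PWBC miRNA pool, with the 7 members summing to between 4.30% and 7.74% of retained counts (median 6.33%, n = 14). bta-miR-23a was the most abundant with 27224 ± 3905 CPM (SD, n = 14), the level ranked 11 among the 341 retained miRNAs. bta-miR-27b followed with 13856 ± 4547 CPM (rank 16), bta-miR-23b-3p with 11321 ± 2917 CPM (rank 22), bta-miR-24-3p with 6040 ± 1711 CPM (rank 37) and bta-miR-27a-3p with 2229 ± 518 CPM (rank 55). The remaining members were rare, with 22.8 ± 12.6 CPM for bta-miR-27a-5p (rank 221) and 12.7 ± 11.02 CPM for bta-miR-24 (rank 252). CPM has no term for length, which is nearly the same for all mature miRNAs, and differences in how well each miRNA ligates to the adapters were not measured.

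This order of levels held within animals with 2 exceptions. bta-miR-27b was above bta-miR-23b-3p in 10 of 14 heifers, and bta-miR-27a-5p was above bta-miR-24 in 9 of 14, so neither pair of neighbours was separated beyond its spread. Each of the other neighbours in the order kept its place in 14 of 14 heifers. The ranges over heifers did not overlap for bta-miR-24-3p over bta-miR-27a-3p and for bta-miR-27a-3p over bta-miR-27a-5p.

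bta-miR-23a also varied little between heifers. Its coefficient of variation was 14.3%, against 25.8% for bta-miR-23b-3p, 23.2% for bta-miR-27a-3p, 28.3% for bta-miR-24-3p and 32.8% for bta-miR-27b. The median coefficient of variation was 25.8% over the 72 miRNAs with a mean of at least 1000 CPM, to which these 5 belong, and 55.4% over all 341.

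**Figure D1:**
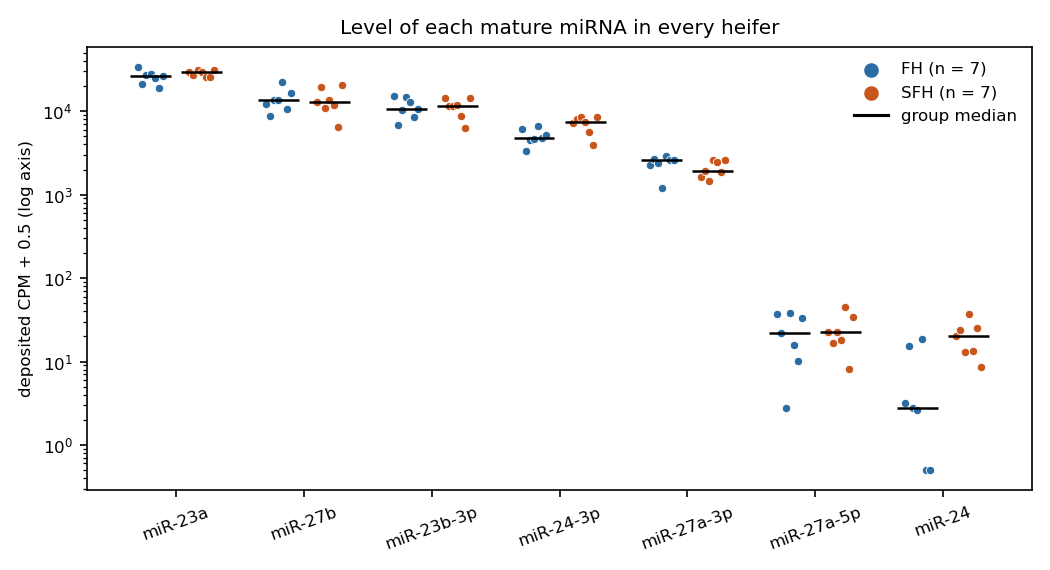
Level of each of the 7 miRNAs in every heifer, as deposited CPM plus 0.5 on a log axis (the added 0.5 lets a count of 0 be drawn), with FH in blue, SFH in orange and black bars at the group medians. The groups overlap for all 7 miRNAs, bta-miR-23a lies in a narrow band between 18979 and 33774 CPM, and bta-miR-24 is at 0 in 2 FH heifers.

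None of the 7 members passed the thresholds of the study's methods (p-value of at most 0.05 and absolute log2 fold change of at least 0.5) in edgeR's quasi-likelihood test of SFH against FH. Over all retained miRNAs 13 of 341 passed, or 3.81%. With the p-value alone, 1 of the 7 members (bta-miR-24-3p) was at or under 0.05, as were 20 of 341 miRNAs (5.87%), and nothing about the members was read from a count of 1. After Benjamini-Hochberg adjustment over the 341 miRNAs no miRNA was called by edgeR (0 of 341, or 0%, with a smallest adjusted p-value of 0.142), whereas DESeq2 called 2, neither of them a member. The exact permutation test compared group means of log2(TMM-normalized CPM + 0.5) and had 1 of 7 members (bta-miR-24) at a p-value of at most 0.05, beside 21 of 341 miRNAs (6.16%), and also left 0 after adjustment. The members' log2 fold changes lay between −0.27 and 1.76, beside a median of 0.06 over all 341.

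**Figure D2:**
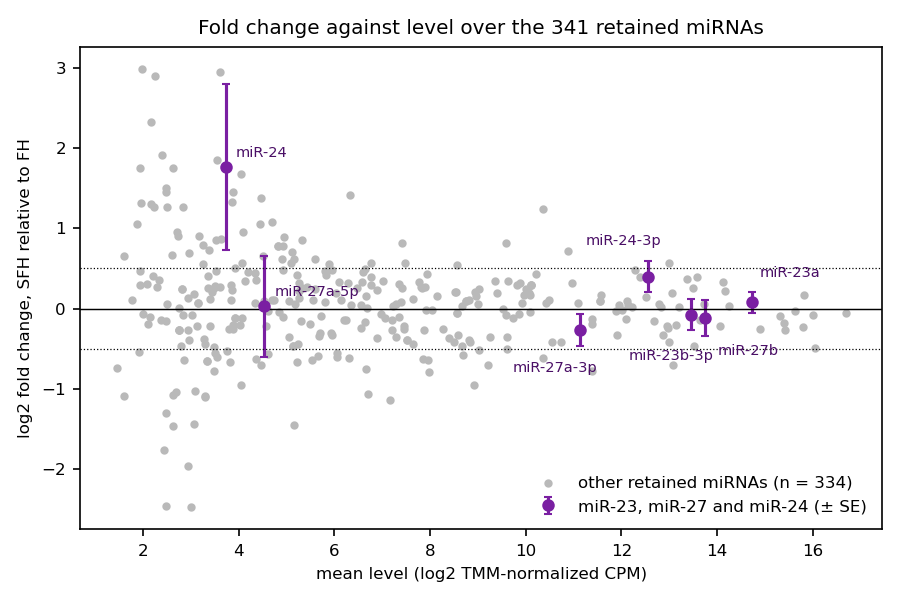
Log2 fold change of SFH relative to FH against mean level (log2 TMM-normalized CPM) for the 341 retained miRNAs, with the 7 cluster miRNAs in purple with their standard errors and dotted lines at 0.5 and −0.5. The 5 abundant members lie between −0.27 and 0.40, inside the dotted lines, and bta-miR-24 lies at 1.76 among low-level miRNAs that scatter widely.

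The miR-23 pair did not differ detectably between the groups. miR-23a is known for repressing mitochondrial glutaminase, and miR-23b for restraining inflammatory signalling. bta-miR-23a ranged from 18979 to 33774 CPM in FH (median 26606) and from 25839 to 31538 CPM in SFH (median 29208). All SFH values lay inside the FH range, and the lowest SFH heifer was above 3 of 7 FH heifers. The log2 fold change was 0.08 (SE 0.13; edgeR, adjusted p = 0.963; exact permutation test, p = 0.333). bta-miR-23b-3p ranged from 6867 to 15147 CPM in FH (median 10660) and from 6327 to 14557 CPM in SFH (median 11659). These ranges coincided nearly throughout, and the log2 fold change was −0.08 (SE 0.20; edgeR, adjusted p = 0.977; exact permutation test, p = 0.754). Its sign was not fixed, since the value was 0.06 without SFH 30, 0.06 without FH 25 and 0.01 without SFH 28.

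bta-miR-23b-3p is counted on 2 entries, and which one is read sets its level. The entry with the higher total (483770 counts over the 14 heifers) is the one in the deposited CPM table and was used here. Its counts were identical in all 14 heifers to those of bta-miR-10174-3p, which stands directly beside it in the count table. The counts of bta-miR-23b-5p, the other strand, were likewise identical to those of bta-miR-10174-5p. The same counts thus stand under more than 1 name. The other entry (351682 counts) stands between bta-miR-23a and bta-miR-24-3p and held 67.2% to 76.4% of the counts of the first (median 72.7%). Read from this entry, bta-miR-23b-3p averaged 8246 ± 1989 CPM (SD, n = 14; rank 29). bta-miR-27b was then above it in 14 of 14 heifers, and bta-miR-24-3p was below it in 13 of 14. The group difference stayed small at −0.05 (SE 0.19; edgeR, adjusted p = 0.976; exact permutation test, p = 0.822), FH averaging 8174 ± 2134 CPM and SFH 8319 ± 2001 CPM (SD, 7 heifers each). These CPM means, scaled to the retained total with no TMM factors, run opposite to the fold change, which rests on TMM-normalized counts. No direction is given for bta-miR-23b-3p. The 2 entries of bta-miR-24-3p, in contrast, held nearly the same counts (98.4% to 99.6%).

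bta-miR-23b-3p made up 19.7% to 34.5% of the summed miR-23a and miR-23b-3p counts (median 29.5%, n = 14), or 23.0 ± 3.22% by the entry with the lower total (SD, n = 14). It was thus the minor paralog in every heifer. The log2 ratio of bta-miR-23b-3p to bta-miR-23a differed by −0.16 between SFH and FH (exact two-sided permutation test, p = 0.350, adjusted p = 0.894 over 622 ratios between letter paralogs). Since the pair is near-identical in sequence, the counting could place a read under both names or split reads between them, and their ratio is uncertain.

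In the miR-27 family, known for repressing the fat cell regulator PPARG and for restraining T cell activation, the b form was the major one. bta-miR-27b made up 76.5% to 91.9% of the summed miR-27a-3p and miR-27b counts (median 85.8%, n = 14). This is the reverse of the miR-23 pair, in which the a form led in every heifer. Here too the counting could place a read under both paralogs or split reads between them. That was not examined, and the share is uncertain. Levels of bta-miR-27b ran from 8709 to 22618 CPM in FH (median 13582) and from 6457 to 20594 CPM in SFH (median 12804). The highest value was in FH 27 and the lowest in SFH 30. The log2 fold change of −0.12 was smaller than its standard error of 0.23 (edgeR, adjusted p = 0.977; exact permutation test, p = 0.614), and became 0.07 without FH 27 and 0.02 without SFH 30.

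bta-miR-27a-3p ranged from 1210 to 2915 CPM in FH (median 2576) and from 1476 to 2624 CPM in SFH (median 1909). Of the 7 FH heifers, 6 were above the SFH median, and FH 25 was below every other heifer of either group. The log2 fold change was −0.27 (SE 0.20; edgeR, adjusted p = 0.947; exact permutation test, p = 0.251). With each heifer left out in turn it ranged from −0.35 without FH 25 (edgeR, p = 0.0469, adjusted p = 0.795; exact permutation test, p = 0.0291) to −0.17 without FH 27 (edgeR, p = 0.408, adjusted p = 0.929), and it was −0.18 without SFH 23. The log2 ratio of bta-miR-27b to bta-miR-27a-3p differed by 0.11 between the groups (exact two-sided permutation test, p = 0.707, adjusted p = 0.933). Over all paralog ratios 21 of 622 (3.38%) had a p-value of at most 0.05, and neither the miR-23 nor the miR-27 ratio was among them. Most of the 622 ratios pair forms of miR-2285 with each other, some of them with the same values (bta-miR-2285ar and bta-miR-2285bd). The share and the adjusted p-values over paralog ratios thus describe mainly that family.

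The 5p strand of miR-27a was detected in every heifer but always at a small share of the hairpin's output. It made up 0.0947% of the miR-27a counts in FH 24, where it had 4 counts, and 2.999% in FH 25, with a median of 1.04% over the 14 heifers. bta-miR-27a-5p ranged from 2.28 to 37.4 CPM in FH (median 21.3) and from 7.58 to 44.9 CPM in SFH (median 22.0), and the group ranges largely overlapped. Its log2 fold change was 0.03 (SE 0.63, edgeR adjusted p = 0.979, exact permutation test p = 0.727). The sign turned in 5 of 14 alternative settings and with 5 of 14 heifers left out in turn. Those settings include the p-value threshold alone, which reuses the main fit and cannot turn the sign. The log2 ratio of bta-miR-27a-5p to bta-miR-27a-3p differed by 0.48 (exact two-sided permutation test, p = 0.492, adjusted p = 0.669 over 34 arm ratios). The other rare strand, bta-miR-23b-5p, averaged 6.45 CPM and had no count in 5 heifers, and its ratio to bta-miR-23b-3p differed by 0.67 (exact two-sided permutation test, p = 0.582, adjusted p = 0.706). These values rest on its entry with the higher total, 260 counts over the heifers. The other entry held 133 counts, from 0% to 100% of the first in heifers with a count there. SFH 30, the heifer with the highest level, had 88 counts in the entry used and 0 in the other.

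The largest log2 fold changes among the 7 members were those of bta-miR-24-3p and bta-miR-24. They are separate miRNAs in the counts, with totals of 254929 and 532 over the heifers, and are described apart. miR-24 is known for repressing cell cycle genes such as MYC. In FH, bta-miR-24-3p was 3331 CPM at the lowest, 4824 at the median and 6700 at the highest, and in SFH it was 3933, 7453 and 8514 CPM. On this scale of deposited CPM, the level was above every FH heifer in 5 of 7 SFH heifers and above the FH median in 6 of 7. The count of 5 depends on the scale. With the TMM factors (0.963 for FH 27 and 1.056 for SFH 17), SFH 17 falls below FH 27. By deposited CPM, only SFH 28 (5683 CPM) and SFH 30 (3933 CPM) lay inside the FH range. FH averaged 5042 ± 1106 CPM and SFH 7038 ± 1672 CPM (SD, 7 heifers each). The log2 fold change was 0.40 (SE 0.19), which is under the fold threshold, with a p-value of 0.0456 in edgeR (adjusted p = 0.828) and of 0.0664 in the exact permutation test (adjusted p = 0.702). The call turned on single heifers. Without FH 22, FH 24, FH 29, SFH 21 or SFH 23 the edgeR p-value was above 0.05, between 0.0550 and 0.118, and the log2 fold change between 0.34 and 0.41. Without FH 27 the log2 fold change was 0.52, past both thresholds (p = 0.0117 and adjusted p = 0.346 in edgeR; p = 0.0355 in the exact permutation test). Without SFH 30 it was 0.53, also past both (p = 0.00487 and adjusted p = 0.271 in edgeR; p = 0.00932 in the exact permutation test). SFH 30 had the lowest bta-miR-24-3p, bta-miR-27b and bta-miR-23b-3p of its group and the highest erythroid bta-miR-451 of all heifers (7068 CPM). The summed granulocyte and monocyte markers also had a higher median in SFH, as given above. This held for bta-miR-223 and bta-miR-142-5p but not for bta-miR-142-3p (median 147 CPM in FH and 143 CPM in SFH). The part of these markers in the bta-miR-24-3p values was not tested.

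bta-miR-24, a separate name whose strand the files do not give, was close to the detection limit in most FH heifers. In FH the lowest value was 0, the median 2.28 and the highest 17.9 CPM, and in SFH these were 8.19, 19.5 and 36.9 CPM. FH 29 and FH 31 had no count, which allows up to 0.666 and 0.904 CPM, and FH 20, FH 24 and FH 25 were at 2.11 to 2.66 CPM. FH 22 and FH 27, at 14.8 and 17.9 CPM, lay among the SFH values, whereas no SFH heifer was as low as the other 5 FH heifers. FH averaged 5.68 ± 7.42 CPM and SFH 19.7 ± 9.65 CPM (SD, 7 heifers each). On the scale of log2(TMM-normalized CPM + 0.5) the means differed by 2.64 (exact two-sided permutation test, p = 0.00932, adjusted p = 0.397), and it stayed between 2.22 and 3.09 with each heifer left out in turn. edgeR gave a log2 fold change of 1.76 with a standard error of 1.04 and did not call it (adjusted p = 0.890). It was past the unadjusted thresholds at 2.45 without FH 27 in edgeR (adjusted p = 0.644) and at 3.26 in limma-voom (adjusted p = 0.279).

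bta-miR-24 was 0% to 0.619% of the summed bta-miR-24 and bta-miR-24-3p counts. The log2 ratio of bta-miR-24 to bta-miR-24-3p was higher in SFH by 2.24 (exact two-sided permutation test, p = 0.0245), but the adjusted p-value over the 34 arm ratios was 0.416. It was 1 of 2 arm ratios with a p-value of at most 0.05 (5.88% of 34). The 34 pairs were formed by name only, since the strand of bta-miR-24 is not given. They are not all separate, as the bta-miR-10174 strands repeat the counts of bta-miR-23b, and bta-miR-129 has the same values as bta-miR-129-5p. Without SFH 30 the difference was 2.03 and the p-value 0.0501.

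The balance of bta-miR-24-3p against its cluster partners was described as ratios of CPM, a pattern chosen after the values were seen and therefore given with no test. bta-miR-24-3p was 0.313 to 0.566 times the level of bta-miR-23b-3p in FH (median 0.484) and 0.499 to 0.734 times in SFH (median 0.626). Here 6 of 7 SFH heifers were above every FH heifer, SFH 17 being the exception. By the entry of bta-miR-23b-3p with the lower total, 4 of 7 were above every FH heifer. SFH 30, which was low in bta-miR-24-3p itself, had a ratio of 0.622 that stood with its group, since its bta-miR-23b-3p was low as well.

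The ratio to bta-miR-27b was 0.296 to 0.498 in FH and 0.409 to 0.787 in SFH, with 4 of 7 SFH heifers above every FH heifer and all 7 above the FH median. The ratio to bta-miR-27a-3p was 1.25 to 3.83 in FH (median 2.003) and 2.12 to 5.77 in SFH (median 3.21), with all 7 SFH heifers above the FH median. The ratio to bta-miR-23a was 0.156 to 0.270 in FH and 0.152 to 0.296 in SFH, with SFH 30 the lowest of all heifers. The ratio of bta-miR-27b to bta-miR-23b-3p, both of the miR-23b cluster, ran from 0.811 to 1.76 in FH and from 0.885 to 1.66 in SFH, and the groups were not separated.

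**Figure D3:**
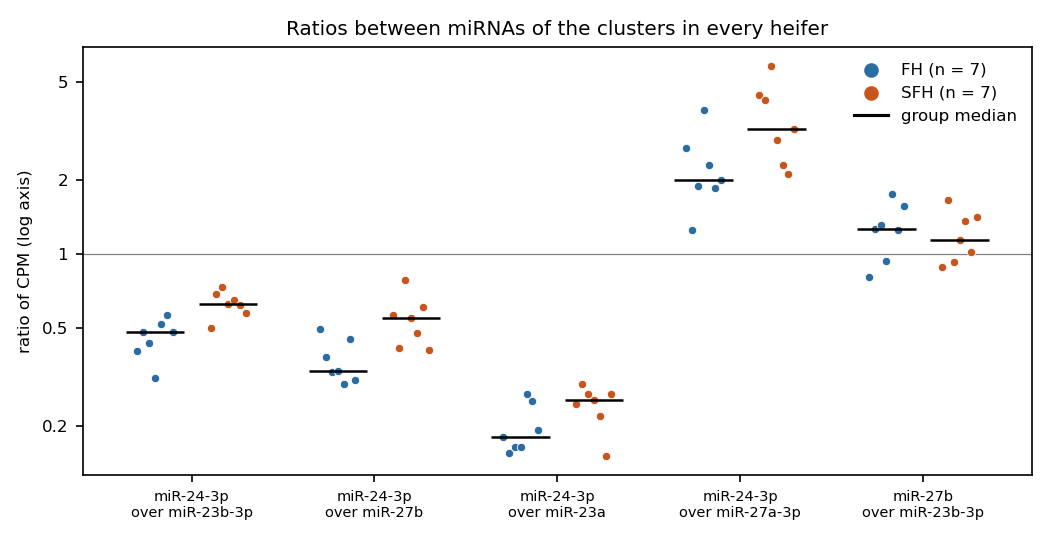
Ratio of CPM between pairs of cluster miRNAs in every heifer on a log axis, with FH in blue, SFH in orange and black bars at the group medians. For bta-miR-24-3p over bta-miR-23b-3p, 6 of 7 SFH heifers lie above all FH heifers, whereas for bta-miR-27b over bta-miR-23b-3p the groups overlap. By the entry of bta-miR-23b-3p with the lower total, which is not drawn, the 6 becomes 4. The ratios were chosen after the values were seen and were not tested.

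The members of the clusters were then compared across heifers, to see whether miRNAs cut from a common transcript varied together. Correlations were computed on log2(TMM-normalized CPM + 0.5) over the 14 heifers for the 2359 pairs of a member with a retained miRNA. Of these pairs, 237 (10.0%) had an unadjusted permutation p-value of at most 0.05. Among the 21 pairs of members, 5 did, all of them positive and all between bta-miR-23a, bta-miR-23b-3p, bta-miR-27b and bta-miR-24-3p. None of the 21 passed adjustment over the 2359 pairs. For scale, the median r over all 57970 pairs of retained miRNAs was 0.01, with a 5th percentile of −0.50 and a 95th percentile of 0.53, and the 95th percentile was 0.64 among the 72 abundant miRNAs.

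The miRNAs of the miR-23b cluster showed positive correlations with each other. The correlation of bta-miR-23b-3p with bta-miR-27b was r = 0.69 (permutation p = 0.00658, adjusted p = 0.330) and rho = 0.50 (permutation p = 0.0718, adjusted p = 0.605). bta-miR-23b-3p with bta-miR-24-3p had r = 0.66 (permutation p = 0.0100, adjusted p = 0.390) and rho = 0.50 (permutation p = 0.0684, adjusted p = 0.605). bta-miR-27b with bta-miR-24-3p had r = 0.59 (permutation p = 0.0251, adjusted p = 0.468) and rho = 0.42 (permutation p = 0.133, adjusted p = 0.676). Within the groups of 7, r for these 3 pairs was 0.60, 0.75 and 0.78 in FH and 0.78, 0.89 and 0.79 in SFH, in that order. The exact permutation p-values of these r values ran from 0.0214 to 0.137. By rank the within-group values were lower, with rho of 0.32, 0.61 and 0.43 in FH and 0.64, 0.32 and 0.46 in SFH. None of these rho values had an exact permutation p-value at or under 0.05 (0.139 to 0.498). The relation rested in part on few animals. With the 2 heifers farthest from the median of the first-named miRNA left out, r was 0.24 for bta-miR-23b-3p with bta-miR-27b and 0.19 for bta-miR-23b-3p with bta-miR-24-3p (without SFH 30 and FH 22), and 0.49 for bta-miR-27b with bta-miR-24-3p (without SFH 30 and FH 27), and none of these had a permutation p-value at or under 0.05. The choice of heifers mattered, since r of bta-miR-23b-3p with bta-miR-27b was 0.51 with those farthest in bta-miR-27b left out instead (SFH 30 and FH 27), as read from the identical counts of bta-miR-10174-3p.

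In the miR-23a cluster, the pairs with bta-miR-27a-3p did not show this pattern, whereas bta-miR-23a with bta-miR-24-3p had a positive r. bta-miR-23a and bta-miR-27a-3p, whose hairpins are neighbours, had a negative r of −0.45 (permutation p = 0.105, adjusted p = 0.581) and a rho of −0.60 (permutation p = 0.0262, adjusted p = 0.514). bta-miR-27a-3p with bta-miR-24-3p had r = −0.08 (permutation p = 0.790, adjusted p = 0.944) and rho = −0.07 (permutation p = 0.822, adjusted p = 0.968). bta-miR-23a with bta-miR-24-3p had r = 0.57 (permutation p = 0.0311, adjusted p = 0.468) and rho = 0.53 (permutation p = 0.0544, adjusted p = 0.581), and r was 0.38 without FH 22 and FH 20. Since bta-miR-24-3p is made from both clusters, its correlations cannot be assigned to either one. Whether the correlations of the clusters differ from each other was not tested.

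Between paralogs, bta-miR-23a and bta-miR-23b-3p had r = 0.69 (permutation p = 0.00648, adjusted p = 0.330) and rho = 0.65 (permutation p = 0.0144, adjusted p = 0.472), with 0.87 in FH and 0.65 in SFH. Without FH 22 and FH 20, which had low and high values of both miRNAs, r was 0.43. The part of reads shared between these paralogs in the correlation was not tested. The miR-27 paralogs had r = 0.26 (permutation p = 0.363, adjusted p = 0.816) and rho = 0.24 (permutation p = 0.417, adjusted p = 0.847). The miR-27a strands had r = −0.17 (permutation p = 0.557, adjusted p = 0.883) and rho = −0.27 (permutation p = 0.358, adjusted p = 0.829). bta-miR-24 with bta-miR-24-3p had no correlation past the threshold over the 14 heifers, with r = 0.23 (permutation p = 0.421, adjusted p = 0.844). Its rho was 0.25 (permutation p = 0.380, adjusted p = 0.834). The r was −0.17 in FH, −0.23 in SFH and −0.17 on values centred on the group means. Without FH 22 and SFH 30 it was 0.68, a value that includes the group differences of both miRNAs. No direction is given for this pair.

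**Figure D4:**
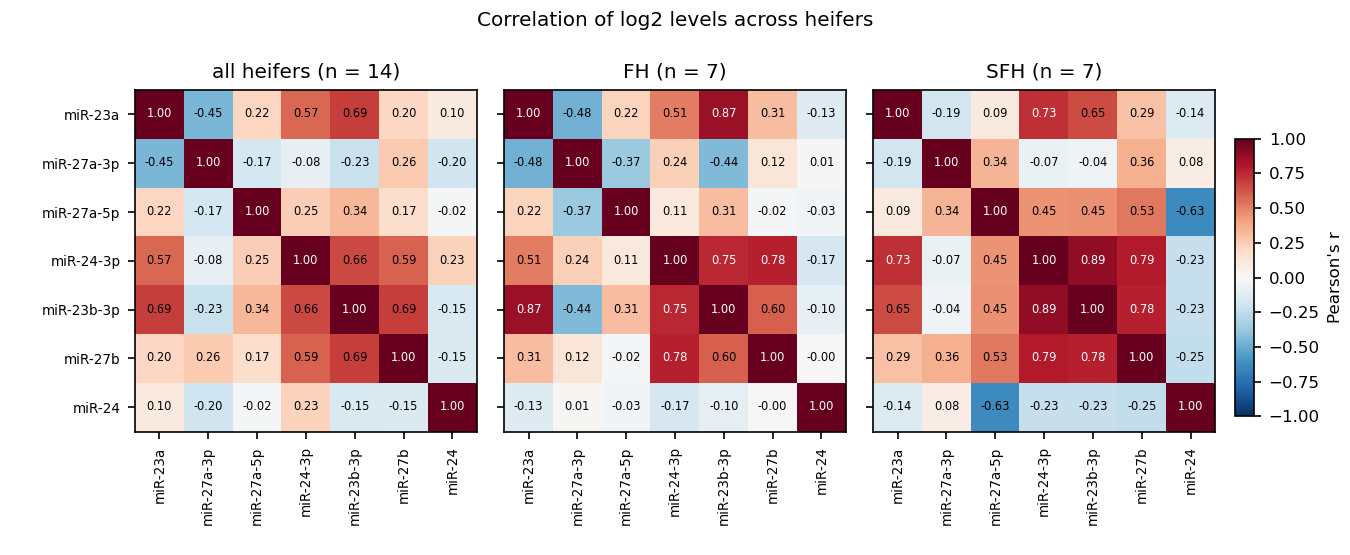
Pearson's r between the 7 cluster miRNAs on log2(TMM-normalized CPM + 0.5), over all 14 heifers (left), the 7 FH heifers (middle) and the 7 SFH heifers (right), from −1 in blue to 1 in red. The block of bta-miR-24-3p, bta-miR-23b-3p and bta-miR-27b is positive in all 3 panels (0.59 to 0.69 over all heifers), and bta-miR-27a-3p is at −0.45 with bta-miR-23a.

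Outside the clusters, the miRNAs whose levels were most like each member were taken as the 3 with the highest r over the 14 heifers. For bta-miR-24-3p these were bta-miR-130b (r = 0.80), bta-miR-18a (r = 0.80) and bta-miR-151-5p (r = 0.75). bta-miR-18a (r = 0.79) and bta-miR-130b (r = 0.78) also came next to bta-miR-23b-3p, after bta-miR-10174-3p with its identical counts. bta-miR-27b was most like bta-miR-143 (r = 0.77), bta-miR-2411-5p (r = 0.71) and bta-miR-10174-3p (r = 0.69). bta-miR-23a was most like bta-miR-652 (r = 0.79), bta-miR-204 (r = 0.71) and bta-miR-10174-3p (r = 0.69). For bta-miR-27b and bta-miR-23a, the values with bta-miR-10174-3p repeat the pairs with bta-miR-23b-3p given above and are no separate partner. A separate set came up for bta-miR-27a-3p, which was most like bta-miR-450b (r = 0.81), bta-miR-340 (r = 0.79) and bta-miR-32 (r = 0.78). The 2 rare members had weaker partners, namely bta-miR-2419-3p (r = 0.63), bta-miR-211 (r = 0.59) and bta-miR-139 (r = 0.58) for bta-miR-27a-5p, and bta-miR-487b (r = 0.74, rho = 0.24), bta-miR-186 (r = 0.68) and bta-miR-2308 (r = 0.65) for bta-miR-24. Of the 2359 pairs, the only one with an adjusted p-value at or under 0.05 was bta-miR-23b-3p with bta-miR-10174-3p (r = 1.00, adjusted p = 0.0236, from the smallest p-value that 100000 permutations can give, 1e-05), which is a copy of the same counts.

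Several members had negative correlations with leukocyte markers, and none passed adjustment. bta-miR-142-3p had r = −0.80 with bta-miR-23a (permutation p = 0.00113, adjusted p = 0.1997; rho = −0.73, permutation p = 0.00458, adjusted p = 0.419) and r = −0.77 with bta-miR-23b-3p (permutation p = 0.00150, adjusted p = 0.201; rho = −0.76, permutation p = 0.00232, adjusted p = 0.365). In both pairs r was also negative within FH (−0.91 and −0.89) and within SFH (−0.52 and −0.67). For bta-miR-23a it was weaker on deposited CPM (−0.53) and without FH 22 and FH 20 (−0.51), and for bta-miR-23b-3p it was −0.70 on deposited CPM and −0.63 without SFH 30 and FH 22. The other markers of the same list differed, bta-miR-142-5p having r = −0.34 with bta-miR-23a and −0.66 with bta-miR-23b-3p, and bta-miR-223 having r = 0.20 and −0.04. bta-miR-27b had r = −0.68 with bta-miR-342 (permutation p = 0.00676, adjusted p = 0.330; rho = −0.60, permutation p = 0.0260, adjusted p = 0.514), −0.63 with bta-miR-150 (permutation p = 0.0139, adjusted p = 0.432; rho = −0.55, permutation p = 0.0444, adjusted p = 0.563) and −0.61 with bta-miR-223 (permutation p = 0.0208, adjusted p = 0.468; rho = −0.63, permutation p = 0.0179, adjusted p = 0.472). The part of cell composition in these values was not tested. With log2 total count, no member had a correlation past the threshold (adjusted p = 0.993 for all 7), the r values lying between −0.19 and 0.14.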

How the data were processed

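Small RNA of PWBC was sequenced from 14 heifers (7 FH and 7 SFH), with groups and heifer numbers taken from the sample labels. The authors trimmed adapters and end bases with Cutadapt, checked reads with FastQC 0.11.9 and MultiQC 1.12, used miRDeep2 with the cattle genome (build ARS-UCD1.2) and the miRNAs of miRBase, and deposited raw counts of reads per mature miRNA and precursor (1207 entries, 1030 names). The authors also deposited CPM for 341 miRNAs, which equal the counts divided by the summed counts of those 341 miRNAs. The miRDeep2 counts can place a read on more than 1 name, and no removal of PCR copies is described.

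From the counts, 1 entry per mature name (the highest total) was kept, and a miRNA was retained if 7 or more heifers reached a CPM of 1. After TMM normalization, edgeR 4.0.16 in R 4.3.3 was run with its quasi-likelihood test and no term but group, with Benjamini-Hochberg adjustment across the 341 miRNAs. Standard errors were derived from the F statistics. Exact two-sided permutation tests ran over the 3432 possible group assignments, for which the smallest p-value is 0.000583, and a pseudocount of 0.5 CPM. Arm ratios (34) and ratios between letter paralogs (622) were tested over the whole table, and correlations with 100000 permutations and with exact tests within groups. DESeq2 1.42.0 and limma 3.58.1 were alternatives, and Python 3.11.15, numpy 2.4.6, pandas 2.3.3, scipy 1.17.1 and matplotlib 3.10.9 were used for the other steps. The fits and tests were tested on simulated data.

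The 7 members, the marker lists and the tests were chosen with earlier results of these data known. Other miRNAs named are those of the same families by name, the 3 miRNAs with the highest r to each member, and the markers. Each heifer is a separate animal, and p-values measure the spread between animals. No mature sequences or genome coordinates were used here, and the order and overlaps of the precursor genes come from RefSeq (ARS-UCD2.0), which differs from the build behind the counts. The mRNA profiles and target predictions of the study were not used here.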

Additional observations from a re-analysis of the deposited data

Results flagged for a closer look

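Of 22 groups of 7 heifers examined, 2 had a lowest heifer that stood far from the others by Dixon's criterion (a gap of more than 0.568 of the group's range), where chance would give about 1.1 at 1 in 20. bta-miR-27a-3p was lowest in FH 25, with a log2(TMM-normalized CPM + 0.5) of 10.29 beside 11.13 in the nearest FH heifer, a gap of 0.630 of the range. bta-miR-27a-5p was lowest in FH 24, with 1.46 beside 3.64 in the nearest FH heifer, a gap of 0.569 of the range. That gap barely passes the criterion, and the FH 24 value rests on 4 counts. FH 25 was also the heifer with the highest share of bta-miR-27a-5p among the miR-27a counts (2.999%), and FH 24, the library with the lowest total count (1754971), had the lowest share (0.0947%). The cause of either value was not tested.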

How the results depend on the processing

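With each heifer left out in turn, the number of members past the thresholds in edgeR was 0 to 2 (2 without FH 27 and 1 without SFH 30), the number at an exact permutation p-value of at most 0.05 was 1 to 2, and the number of member ratios at that p-value was 0 to 1 (0 without SFH 30). The log2 fold change then ranged from −0.14 to 0.060 for bta-miR-23b-3p, −0.21 to 0.25 for bta-miR-27a-5p and −0.24 to 0.071 for bta-miR-27b, the exact permutation difference from −0.19 to 0.056, −0.22 to 0.46 and −0.26 to 0.018 for these, and the log2 ratio of bta-miR-27b to bta-miR-27a-3p from −0.028 to 0.27. The other members kept their sign. Among other settings, 1 member was called by limma-voom (bta-miR-24) and 1 at any fold change (bta-miR-24-3p), and 2 had an exact permutation p-value of at most 0.05 on deposited CPM (bta-miR-24 and bta-miR-24-3p). bta-miR-27a-5p was −0.0061 with RLE factors, −0.018 with a CPM of at least 1 in all 14 heifers (which bta-miR-24 did not reach), −0.0080 in DESeq2, −0.033 with every precursor entry kept and −0.0078 with entries summed. bta-miR-23b-3p was 0.0013 with library totals and 0.0020 in the exact permutation test on deposited CPM. The number of member pairs at a p-value of at most 0.05 was 2 by Spearman's rho and 2 within FH, and r of bta-miR-27a-3p with bta-miR-24-3p was 0.10 on values centred on the group means and 0.24 within FH. The cause was not tested for any of these. Over all miRNAs the number past the thresholds was 13 of 341, 23 with limma-voom, 126 of 614 without a filter, 20 of 434 with every entry kept, 21 without FH 24 and 20 without FH 27. Reading bta-miR-23b-3p from its other entry, or leaving out bta-miR-10174, were alternatives chosen after seeing the data. Both left 0 members past the thresholds, and reading the other entry kept the p-value of bta-miR-24-3p at or under 0.05. That p-value was above 0.05 without bta-miR-10174 (0.0574), in DESeq2 (0.0502) and limma-voom (0.0750), with a CPM of at least 1 in all 14 heifers (0.0756) and with every precursor entry kept (0.128). No paired analysis was possible because the groups share no heifer number. Depth limits bta-miR-24, with 2 heifers at 0 counts, and bta-miR-23b-5p, with 5 in the entry used. It also limits bta-miR-27a-5p in FH 24, with 4 counts.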
